A study of Mus musculus with 18 samples.

Results

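Granzymes are serine proteases that cytotoxic lymphocytes store in granules, and perforin is the pore-forming protein that lets them into a target cell. The 10 genes described here are Gzma, Gzmb, Gzmc, Gzmd, Gzme, Gzmf, Gzmg, Gzmk, Gzmm and Prf1, taken by symbol from a given list out of 49671 gene models counted in T cells of mouse melanomas. All 10 were found, and all 10 passed the filter on low counts that left 14080 genes to test.

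When a cytotoxic cell meets its target, granules fuse with its membrane, perforin opens the target membrane, and granzymes enter and cleave proteins there. Granzyme B cleaves after aspartate and starts programmed cell death, granzymes A and K cleave after basic residues, and granzyme M after methionine or leucine. Granzymes C to G are found in mice and not in humans. They lie in a row with Gzmb on chromosome 14 and come on late in strongly stimulated T cells. MiR-155 is made in T cells after activation and lowers the output of many transcripts, and the checkpoint receptors PD-1 and CTLA-4 dampen T cell responses.

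B16f10-OVA cells, which are melanoma cells carrying an ovalbumin transgene, were grown for 12 days under the flank skin of B6 mice. All mice carried a floxed miR-155 gene. CD8+ and CD4+ T cells were sorted from 3 kinds of mice: deficient mice under blockade of PD-1/PD-L1 and of CTLA-4 by antibodies, given on days 3, 6 and 9 (250 ul into the abdomen, called treated deficient here), untreated deficient mice, and untreated floxed mice without Cre. Deficient mice carried CD4cre, a Cre driven by the CD4 promoter, which is active in precursors of both CD4 and CD8 T cells, so it can delete the gene in both sorted populations and not in tumor cells. Cre itself and the deletion cannot be told apart, and treated floxed mice were not analysed here. Each of the 6 groups had 3 libraries, and each library pooled cells from 2 to 3 tumors. The libraries held 3198435 to 11645432 counts, and 3 counts in a library corresponded to 0.258 to 1.24 CPM, the library-scaled count used for every level below unless TPM is named.

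Mir155hg, the primary transcript of miR-155, was near its floor wherever Cre was carried. It stood at 0.428 ± 0.0907 CPM in treated deficient, 1.01 ± 0.840 in deficient and 16.3 ± 6.26 in floxed CD8 cells (SD, n = 3 each), and at 0.0928 ± 0.0957, 0.405 ± 0.353 and 6.61 ± 1.68 CPM in the same groups of CD4 cells. The sorts held other cells in unequal amounts. The sum of 14 melanoma markers was 877 CPM in treated deficient, 2605 in deficient and 181 in floxed CD8 cells, and 1049, 3398 and 342 CPM in CD4 cells. The sum of 18 macrophage and monocyte markers was 663, 2151 and 1278 CPM in CD8 cells and 3845, 4034 and 17820 CPM in CD4 cells, in the same order. The Cd3d, Cd3e and Cd3g sum, which all T cells share, was 1594, 941 and 1357 CPM in CD8 cells and 1232, 923 and 810 CPM in CD4 cells. In such bulk samples fewer cells of a type and less RNA per cell cannot be told apart.

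Gzmb had 237957 counts over the 18 libraries, Prf1 78625 and Gzmc 65308, so the main granule genes were measured on many reads, whereas Gzmg had 607 and Gzmm 489. Gzma (GRCm38 chromosome 13, 113093825 to 113100979) and Gzmk (chromosome 13, 113171608 to 113225908) lie near each other on the minus strand. Gzmm (chromosome 10, 79689020 to 79695261) and Prf1 (chromosome 10, 61297836 to 61304263) lie on the plus strand. Gzmb (chromosome 14, 56258856 to 56262260), Gzmc (56231401 to 56234656), Gzmf (56205266 to 56211407), Gzmg (56156582 to 56159579), Gzmd (56129556 to 56132608) and Gzme (56117619 to 56120625) follow each other on the minus strand. No member shares an exon with another gene on its strand.

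The 5 genes Gzmc to Gzmg are near copies, which limits how well their reads can be told apart. Gzmd and Gzme transcripts were 94.8% identical, Gzmd and Gzmg 90.2%, and Gzmc 74.6% to 76.4% identical to the other 4. Of all stretches of 50 bases, 21.9% in Gzmd, 20.6% in Gzme, 19.8% in Gzmg, 7.4% in Gzmf and 4.1% in Gzmc occurred in another gene as well, against 0 in Gzma, Gzmb, Gzmk, Gzmm and Prf1. The single values of Gzmd, Gzme and Gzmg are therefore uncertain, and the 5 genes are also given as a sum.

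Their promoters are alike too, with 86.1% to 94.0% identity among the 5 over the 300 bases around the start, against 49.5% to 55.2% between each of them and Gzmb. They are shown because the 5 genes moved together in the results that follow, and Gzmb beside them because it did not always move with them. The lines give RefSeq sequence on GRCm38.p6, minus strand, from 140 to 41 bases before the start of each gene (Gzmb is chr14:56262375-56262474 and Gzmc chr14:56234698-56234797). Capitals mark TGTGGT (bound by Runx factors), TGACGTCA (the cyclic AMP response element) and TGANTCA (the AP-1 site), searched on both strands.
Gzmb: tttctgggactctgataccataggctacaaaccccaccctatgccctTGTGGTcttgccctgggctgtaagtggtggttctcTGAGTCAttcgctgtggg
Gzmc: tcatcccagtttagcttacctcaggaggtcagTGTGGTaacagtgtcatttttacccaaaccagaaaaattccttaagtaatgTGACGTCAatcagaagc
Gzmd: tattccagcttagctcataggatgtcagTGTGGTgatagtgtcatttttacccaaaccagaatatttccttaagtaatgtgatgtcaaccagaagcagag
Gzme: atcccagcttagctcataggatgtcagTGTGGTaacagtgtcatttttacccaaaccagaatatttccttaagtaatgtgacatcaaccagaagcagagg
Gzmf: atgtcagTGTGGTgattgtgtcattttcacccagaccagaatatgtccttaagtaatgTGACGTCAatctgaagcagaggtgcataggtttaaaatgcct
Gzmg: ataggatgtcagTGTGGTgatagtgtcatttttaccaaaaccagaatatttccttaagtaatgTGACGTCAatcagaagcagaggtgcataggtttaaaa

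TGTGGT was present in the 300 bases of 9 of the 10 members (not Gzmk) and in 16.8% of 32851 mouse promoters of that length. TGACGTCA was present in Gzmc, Gzmf and Gzmg and in 1.8% of all promoters, and TGANTCA in Gzmb alone of the members and in 7.8% of all. The T-box letters GGTGTGA were found in Gzmk alone of the members (4.0% of all promoters), and the STAT letters TTCNNNGAA in Gzmb and Gzmm (8.3% of all). These are matches of letters and not measured binding. The promoters of Gzmc to Gzmg are near copies, so their matches do not count as separate ones beside the share of all promoters. The RefSeq start of Gzmk lies 44943 bases inside the gene model of the count files. Mature miR-155-5p reads as follows in RefSeq, with the seed, bases 2 to 8, in capitals.
miR-155-5p: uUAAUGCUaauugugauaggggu
Its target letters AGCATTA occurred in 0 of the 15 annotated transcripts of the 10 members, against 11.5% of 21291 protein-coding genes (first transcript of each). Whole transcripts were searched and not matched for length, with 878 to 1968 bases in the main transcript of each member. A count of 0 among so few genes does not show that they hold fewer sites than other genes.

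Gzmb was the most abundant member per length in all 6 groups. On the TPM scale, which divides by transcript length, Gzmb was at 6767 ± 1592 in treated deficient, 1223 ± 548 in deficient and 4248 ± 341 in floxed CD8 cells (SD, n = 3 each). The CD4 groups held 1291 ± 254, 1178 ± 262 and 1168 ± 165 TPM of Gzmb. In floxed CD8 cells Prf1 (1519 ± 246 TPM) and Gzmc (1318 ± 127 TPM) came next, with libraries that overlapped each other and not those of Gzmb above or of Gzmf below. Gzmf (738 ± 67.3 TPM) was followed by Gzmd, Gzme and Gzma at 173, 153 and 144 TPM, which overlapped, then Gzmk at 92.4, Gzmg at 17.1 and Gzmm at 5.94 TPM. Within each floxed CD8 library Gzmd was above Gzme and Gzme above Gzma. In treated deficient CD8 cells Gzmc (4182 ± 1517 TPM) stood second, above and apart from Prf1 (1421 ± 334 TPM). The ranges of Gzmb and Gzmc overlapped between libraries there, but within each library Gzmb was above Gzmc. In deficient CD8 cells Gzmb, Gzmc (586 ± 212 TPM) and Prf1 (365 ± 183 TPM) led in that order. Each range overlapped the next between libraries, but the order was the same within each library. In CD4 cells the steps were steeper. The second member was Prf1 in deficient (69.3 ± 14.2 TPM) and in floxed CD4 cells (174 ± 101 TPM) and Gzmc in treated deficient CD4 cells (441 ± 418 TPM), all apart from Gzmb. In deficient CD4 cells Gzmd and Gzmg had no count in any library and Gzmf 1 count in all 3.

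**Figure D1:**
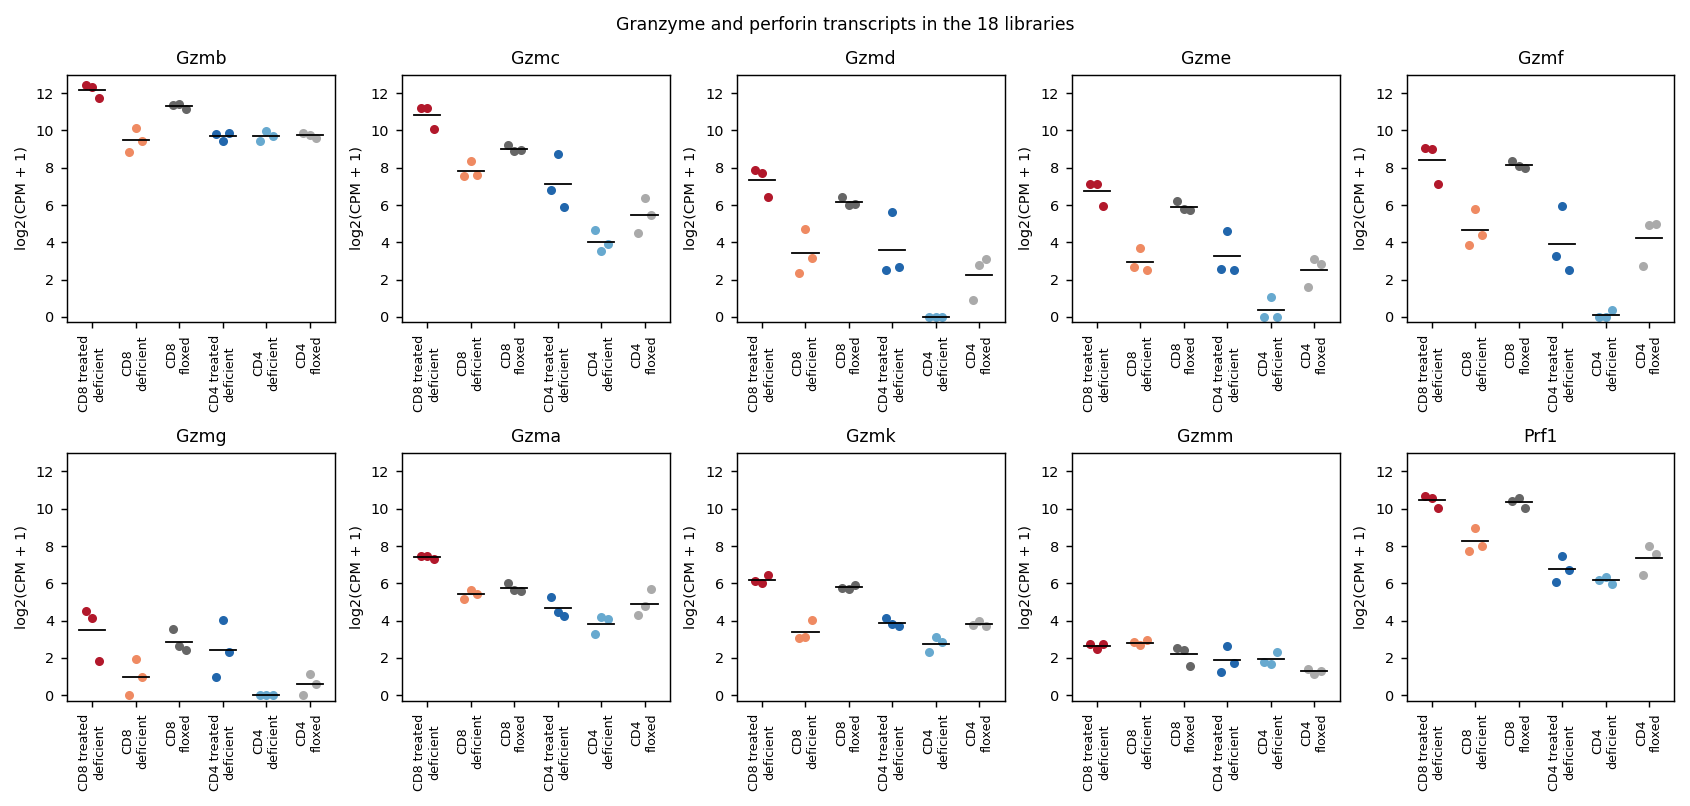
Level of each member as log2(CPM + 1), 1 point per library and a line at the mean of the 3 libraries, for treated deficient, deficient and floxed CD8 cells and then the same groups of CD4 cells. In CD8 cells the deficient mean is the lowest of the 3 for all members except Gzmm, while the means of Gzmb in the CD4 groups lie between 842.6 and 856.3 CPM.

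Loss of miR-155 in CD8 cells went with lower levels of the main killing genes. Gzmb, Prf1, Gzme, Gzmf and Gzmk fell, no member rose, where 9.61% of all tested genes fell and 9.65% rose. Gzmb had 466, 1113 and 682 CPM in deficient CD8 libraries, against 2598, 2760 and 2308 CPM in floxed ones. No deficient library reached a floxed one, and the log2 fold change was -1.76 ± 0.25 (SE, edgeR quasi-likelihood adjusted p = 0.00018, n = 3 each). Prf1, the pore-former, had 214, 506 and 255 CPM in deficient CD8 libraries, against 1386, 1523 and 1068 CPM in floxed ones, a log2 fold change of -2.03 ± 0.43 (edgeR adjusted p = 0.00536). Gzmk, a protease with trypsin-like activity, had the smallest adjusted p of the members. Its levels were 7.31, 7.79 and 15.4 CPM in deficient libraries, against 53.0, 50.2 and 59.6 CPM in floxed ones (-2.43 ± 0.26, edgeR adjusted p = 3.49e-06).

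The genes of the C to G row had negative values too, with wide errors. Gzme stood at 5.30, 12.0 and 4.76 CPM in deficient CD8 libraries, against 74.3, 54.7 and 51.3 CPM in floxed ones (-3.02 ± 0.66, edgeR adjusted p = 0.00632). Gzmf stood at 13.2, 54.6 and 19.8 CPM in deficient libraries, against 326, 274 and 252 CPM in floxed ones (-3.28 ± 0.89, edgeR adjusted p = 0.0227). The Gzmf call was lost without deficient CD8 replicate 1 (-2.93, edgeR adjusted p = 0.0991) or replicate 3 (-3.08, edgeR adjusted p = 0.0816). Gzmd (-2.52 ± 0.95), Gzmg (-2.40 ± 1.18) and Gzmc (-1.14 ± 0.65) did not pass, at an edgeR adjusted p of 0.0936, 0.185 and 0.257. Gzmd was called by limma voom (-2.92, adjusted p = 0.00341), with CD8 libraries alone (-2.53, edgeR adjusted p = 0.00847) and with the replicate block (-2.91, edgeR adjusted p = 0.0499), and Gzmc with CD8 libraries alone (-1.15, edgeR adjusted p = 0.0214). The sum of the 5 genes was 210, 428 and 226 CPM in deficient libraries and 1097, 867 and 871 CPM in floxed ones, without overlap.

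Gzma, which cleaves after basic residues, was the member closest to level in this comparison. It had 34.3, 48.4 and 42.7 CPM in deficient CD8 libraries, against 64.9, 49.2 and 47.7 CPM in floxed ones, which overlapped (-0.37 ± 0.32, edgeR adjusted p = 0.473). Gzmm was the one member with a positive value, at 6.05 ± 0.653 CPM in deficient and 3.74 ± 1.56 CPM in floxed CD8 cells (0.68 ± 0.47, edgeR adjusted p = 0.355). The median log2 fold change of the 10 members was -2.22, against -0.01 for all tested genes. Libraries did not overlap for 9 of the 10 in either direction, against 34.2% of all tested genes. Gzmm was among these and was higher in deficient cells, while the others were lower.

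Other cells and the T cell content moved with this comparison. Melanoma markers were 2605 ± 1029 CPM in deficient and 181 ± 23.4 CPM in floxed CD8 cells, and the Cd3 sum was 941 ± 23.2 and 1357 ± 138 CPM. With libraries scaled to an equal Cd3 sum, the median of all tested genes was 0.50 (log2), with 4294 higher and 289 lower calls in place of 1359 and 1353, and the same 5 members were called lower. Gzmb was then at -1.23 ± 0.26, Gzmk at -1.91 ± 0.29 and Prf1 at -1.49 ± 0.45 (edgeR adjusted p of 0.0015, 3.32e-05 and 0.0231), while the sign of Gzma turned (0.16 ± 0.37, edgeR adjusted p = 0.75). With the melanoma and macrophage sums as covariates 83 genes of all were called higher and 45 lower. Of the members only Gzmk kept its call in that fit (-2.35 ± 0.43, edgeR adjusted p = 0.0108). Gzmb kept its size and not its call (-1.67 ± 0.51, edgeR adjusted p = 0.185), Prf1 was at -0.90 ± 0.79 and Gzme at -0.69 ± 1.09 without a call, and Gzmf turned to 0.54 ± 1.36. The uncalled Gzma, Gzmc, Gzmd and Gzmg also turned positive in that fit, at 0.54, 1.52, 0.53 and 1.35. The part of other cells in these differences was not tested further. Natural killer markers, the other cells known for granzymes, summed to 351 ± 58.5 CPM in deficient and 205 ± 37.5 CPM in floxed CD8 cells, all 11 with a count, and their defining member Ncr1 was at 1.12 ± 0.334 and 0.131 ± 0.226 CPM.

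Checkpoint blockade in deficient CD8 cells went with higher levels of 8 of the 10 members, and none fell, where 8.25% of all tested genes rose and 5.53% fell. Libraries did not overlap for 8 members, against 44.1% of all tested genes. Gzmb had 5450, 5130 and 3444 CPM in treated deficient CD8 libraries, against 466, 1113 and 682 CPM in untreated ones (2.63 ± 0.26, edgeR adjusted p = 9.24e-06, n = 3 each). Prf1 had 1658, 1550 and 1056 CPM in treated libraries, against 214, 506 and 255 CPM in untreated ones (2.13 ± 0.43, edgeR adjusted p = 0.00545). Neither gene had overlapping libraries, and treated replicate 3, which held 1758 CPM of melanoma markers against 371 and 502 CPM in the other treated libraries, was the lowest of its group for both. Gzmk had 69.3, 63.3 and 85.3 CPM in treated libraries, against 7.31, 7.79 and 15.4 CPM in untreated ones (2.86 ± 0.26, edgeR adjusted p = 1.1e-06). Gzma, which was not called under the deletion, had 174, 177 and 157 CPM in treated libraries, against 34.3, 48.4 and 42.7 CPM in untreated ones (2.02 ± 0.32, edgeR adjusted p = 0.000615). For Gzma the treated libraries lay close together and far above every other CD8 library.

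Of the 8 called members, the 4 of the row of near copies had the largest values. Gzmc had 2389, 2330 and 1069 CPM in treated deficient CD8 libraries, against 187, 333 and 193 CPM in untreated ones (3.02 ± 0.69, edgeR adjusted p = 0.0118). Gzme rose by 3.94 ± 0.68, Gzmd by 3.83 ± 0.99 and Gzmf by 3.74 ± 0.91 on the log2 scale (edgeR adjusted p of 0.00179, 0.0276 and 0.017). Gzmg was at 13.5 ± 9.77 CPM in treated and 1.25 ± 1.43 CPM in untreated cells, overlapped, and did not pass (3.41 ± 1.20, edgeR adjusted p = 0.0802). The sum of the 5 was 3314, 3209 and 1358 CPM in treated libraries and 210, 428 and 226 CPM in untreated ones. Gzmm was again apart from the rest, at 5.33 ± 0.675 CPM in treated and 6.05 ± 0.653 CPM in untreated deficient CD8 cells (-0.17 ± 0.47, edgeR adjusted p = 0.861). The median over the members was 2.94, against -0.03 for all tested genes.

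In the row of copies the calls of Gzmc, Gzmd and Gzmf depended on single libraries. Gzme was called whichever library was left out (3.73 to 4.47). Without deficient CD8 replicate 1 or 3 there were 5 members called in place of 8, with Gzmc at 2.89 and 2.91 and an edgeR adjusted p of 0.0557 and 0.0575. Gzmd and Gzmf were not called without deficient replicate 1 or 3 or treated replicate 1 or 2, with values of 3.42 to 3.69 and 3.40 to 3.55. The Cd3 sum was 1594 ± 51.1 CPM in treated and 941 ± 23.2 CPM in untreated cells, and melanoma markers were 877 ± 766 and 2605 ± 1029 CPM. Scaled to an equal Cd3 sum, the median of all genes moved to -0.79, with 159 higher and 7785 lower calls in place of 1162 and 779. The same 8 members were then called higher, with Gzmb at 1.87 ± 0.26 and Gzmk at 2.08 ± 0.29. With the marker covariates 128 genes of all were called higher and 137 lower. Of the members 2 were called in that fit, Gzmb (2.51 ± 0.47, edgeR adjusted p = 0.0191) and Gzmk (3.15 ± 0.38, edgeR adjusted p = 9.64e-05). The other 6 were not called in that fit, at 1.70 ± 0.46 for Gzma (edgeR adjusted p = 0.0749), 1.27 ± 0.87 for Gzmc, 2.49 ± 1.39 for Gzmd, 2.62 ± 0.89 for Gzme, 1.70 ± 1.09 for Gzmf and 1.40 ± 0.69 for Prf1. The part of other cells was not tested further.

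**Figure D2:**
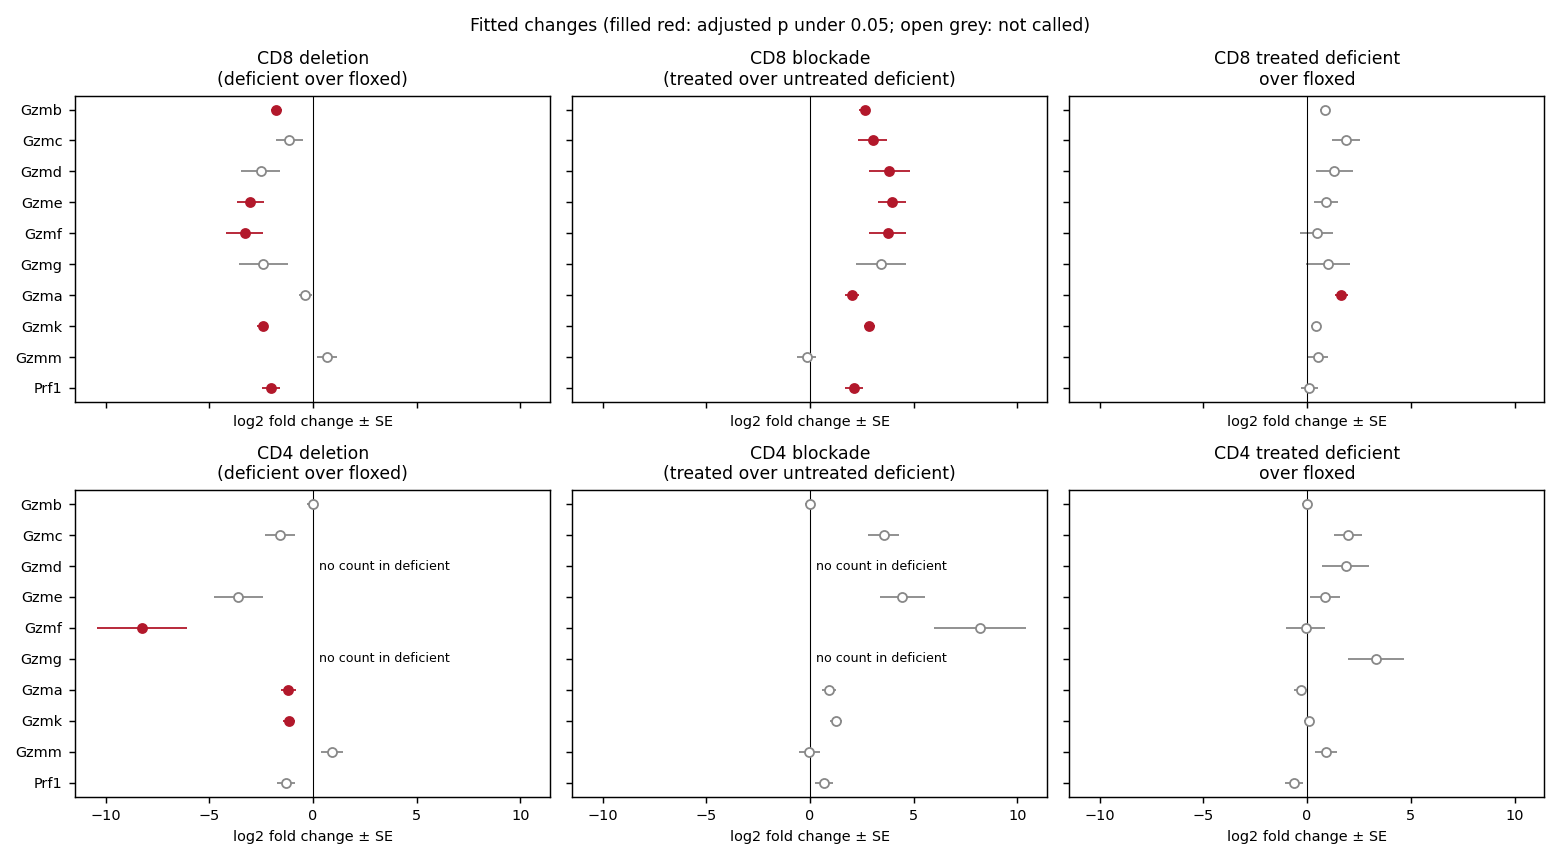
Fitted log2 fold change with its standard error for each member in the 6 comparisons within a cell type, CD8 in the upper row and CD4 in the lower row; filled red points passed an adjusted p of 0.05. In CD8 cells 5 members lie left of zero and called under the deletion and 8 right of zero and called under blockade, while Gzmb lies at zero in all 3 CD4 panels. Gzmd and Gzmg are not drawn where deficient CD4 libraries had no count.

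Treated deficient CD8 cells were above floxed ones for Gzma alone by the test, where 2.69% of all genes were called higher. Libraries did not overlap for 4 members, against 26.3% of all tested genes. Gzma had 174, 177 and 157 CPM in treated deficient libraries, against 64.9, 49.2 and 47.7 CPM in floxed ones (1.65 ± 0.32, edgeR adjusted p = 0.0112). Gzmb was at 4675 ± 1078 CPM in treated deficient and 2555 ± 229 CPM in floxed CD8 cells, without overlap, and just missed the threshold (0.87 ± 0.25, edgeR adjusted p = 0.0531). It was called without a filter, with a stricter filter, by DESeq2, by limma voom and with the replicate block, at 0.84 to 0.88. The fit without a filter gave far smaller adjusted p-values for several members and is not taken as support, as given at the end. It was not called with RLE scaling, with CD8 libraries alone (0.87, edgeR adjusted p = 0.0936), with the marker covariates (0.84, edgeR adjusted p = 0.301) or with an equal Cd3 sum (0.64, edgeR adjusted p = 0.144), nor in 5 of 6 fits with 1 library left out, all but the one without treated replicate 3. Gzmc, at 1929 ± 745 and 523 ± 69.3 CPM in treated deficient and floxed cells, also did not overlap (1.88 ± 0.66, edgeR adjusted p = 0.116). Prf1 stood at 1421 ± 321 CPM in treated deficient and 1326 ± 234 CPM in floxed cells (0.10 ± 0.41, edgeR adjusted p = 0.929). Gzmk was at 0.43 ± 0.24 without overlap and without a call (edgeR adjusted p = 0.301). Gzmd (1.32 ± 0.87), Gzme (0.92 ± 0.58), Gzmf (0.46 ± 0.81), Gzmg (1.01 ± 1.06) and Gzmm (0.51 ± 0.48) overlapped and were not called. Scaled to an equal Cd3 sum, where the median of all genes was -0.24 with 90 higher and 670 lower calls in place of 379 and 327, Gzma stayed called (1.42 ± 0.37, edgeR adjusted p = 0.0338) and the sign of Prf1 turned (-0.12 ± 0.44). Each pair of these 3 CD8 comparisons shares a group of libraries, so their values are not independent of each other.

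In CD4 cells Gzmb was not called under the deletion. Deficient CD4 libraries had 680, 1011 and 837 CPM of Gzmb, against 927, 873 and 769 CPM in floxed ones, which overlapped (-0.02 ± 0.25, edgeR adjusted p = 0.973). Gzmk, Gzma and Gzmf fell, none rose, where 7.06% of all tested genes fell and 4.61% rose. Libraries did not overlap for 7 members in either direction, against 28% of all tested genes. Gzmm was among these and was higher in deficient cells, while the others were lower. Gzmk had 4.03, 7.62 and 6.22 CPM in deficient libraries, against 12.8, 14.5 and 12.2 CPM in floxed ones (-1.16 ± 0.28, edgeR adjusted p = 0.00996). Gzma had 8.57, 17.0 and 16.1 CPM in deficient CD4 libraries, against 18.7, 26.2 and 50.3 CPM in floxed ones (-1.19 ± 0.35, edgeR adjusted p = 0.0379). Both genes had separate groups, with floxed replicate 3 far above the others for Gzma. Gzmf had 0, 0 and 1 counts in deficient libraries, against 34, 214 and 124 counts in floxed ones, a ratio of 401-fold with a counting interval of 71.5 to 15880 (edgeR adjusted p = 0.0281).

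Several other members were near their floor in deficient CD4 cells. Gzmd had 0 counts in all 3 deficient libraries and 5, 43 and 31 in floxed ones, at least 28.4-fold lower in deficient cells with 3 counts over the group as floor. Gzme had 0, 8 and 0 counts in deficient libraries, against 12, 56 and 25 in floxed ones (-3.59 ± 1.16, edgeR adjusted p = 0.0637), and Gzmg 0, 0 and 0, against 0, 9 and 2. Gzmc, the one gene of the row still present in each deficient library, had 24.2, 10.5 and 14.1 CPM, against 21.2, 82.5 and 43.5 CPM in floxed ones, which overlapped (-1.59 ± 0.73, edgeR adjusted p = 0.206). Prf1 was at 71.4 ± 9.30 CPM in deficient and 176 ± 83.7 CPM in floxed CD4 cells, without overlap and without a call (-1.30 ± 0.43, edgeR adjusted p = 0.0719). Gzmm was at 2.87 ± 0.956 and 1.47 ± 0.225 CPM (0.93 ± 0.53, edgeR adjusted p = 0.308). The median of the members was -1.44, also with Gzmd and Gzmg set to their bounds, against 0.01 for all tested genes.

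Floxed CD4 libraries also held CD8 transcripts. Cd8a was at 0.226 ± 0.0789 CPM in deficient and 102 ± 75.8 CPM in floxed CD4 cells, and Cd8a plus Cd8b1 at 17.7, 8.30 and 7.07 CPM in deficient libraries, against 32.1, 233 and 238 CPM in floxed ones. Floxed replicate 1 was the lowest of its group both for these chains and for the Gzmc to Gzmg sum, which was 24.2, 11.6 and 14.4 CPM in deficient libraries and 29.8, 127 and 88.8 CPM in floxed ones. Per CPM of the CD8 chains, the 5 genes came to 0.927, 0.545 and 0.373 CPM in floxed CD4 libraries, near the 0.579, 0.396 and 0.485 of floxed CD8 libraries. For Gzmf alone the ratio was 0.178, 0.126 and 0.129 in floxed CD4 libraries and 0.172, 0.125 and 0.140 in floxed CD8 libraries. Prf1 came to 2.71, 1.09 and 0.788 per CPM of the chains in floxed CD4 libraries and 0.732, 0.695 and 0.594 in floxed CD8 libraries, and Gzmb to 28.8, 3.75 and 3.22 and to 1.37, 1.26 and 1.28.

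Macrophage markers were at 4034 ± 851 CPM in deficient and 17820 ± 6910 CPM in floxed CD4 cells and natural killer markers at 353 ± 71.1 and 949 ± 341 CPM. Ncr1, the defining natural killer marker, was at 2.925 ± 2.196 CPM in deficient and 3.797 ± 2.07 CPM in floxed CD4 cells. Klrb1c was higher in deficient cells, at 12.98 ± 0.5128 against 7.792 ± 5.987 CPM. Both genes overlapped, and whether the higher sum in floxed cells came from natural killer cells was not tested. With the marker covariates no member was called in this comparison (Gzma 0.01 ± 0.70, Gzmk -0.35 ± 0.57, Gzmf -4.21 ± 3.45). Over all genes 4 were called higher and 4 lower in that fit. Scaled to an equal Cd3 sum, which gave a median of -0.18 over all genes and 364 higher and 1180 lower calls in place of 649 and 994, the 3 calls held and Gzme was called as well (-3.77 ± 1.11, edgeR adjusted p = 0.0456). The part of CD8 cells and of other cells was not tested further. Calls also changed with the libraries and the tool used. Gzma was not called without floxed CD4 replicate 3 (-0.74) or deficient replicate 1 (-0.93), 2 (-1.42) or 3 (-1.33), nor by limma voom (-1.11), in a fit of CD4 libraries alone or with the replicate block (-1.18 in each). Gzmk was not called without deficient replicate 1 (-0.93, edgeR adjusted p = 0.0738), and Gzmf without any library of the 6 except floxed replicate 1 (edgeR adjusted p of 0.0628 to 0.119) nor by limma voom.

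**Figure D3:**
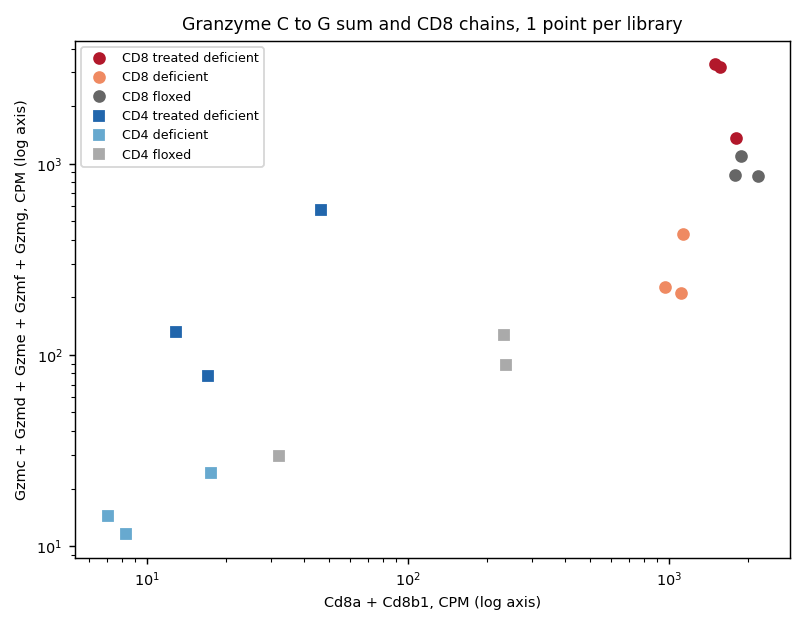
Summed level of Gzmc, Gzmd, Gzme, Gzmf and Gzmg against the summed level of Cd8a and Cd8b1, both in CPM on log axes, 1 point per library (circles for CD8 cells, squares for CD4 cells). Floxed CD4 libraries reach 127 CPM of the granzymes at 233 CPM of the CD8 chains, whereas treated deficient CD4 libraries hold 77.6 to 571 CPM at only 12.9 to 46.4 CPM of the chains.

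No member was called by edgeR under blockade in deficient CD4 cells, where 0.142% of all tested genes were called in either direction. At an unadjusted p under 0.05 there were 7 members of the 10 and 1590 genes of all, and DESeq2 called 5 members. Gzmb had 900, 700 and 947 CPM in treated deficient CD4 libraries, against 680, 1011 and 837 CPM in untreated ones (0.01 ± 0.25, edgeR adjusted p = 0.994). For the row of copies each treated library lay above every untreated one. Gzmc had 113, 423 and 58.9 CPM in treated libraries, against 24.2, 10.5 and 14.1 CPM in untreated ones (3.56 ± 0.75, edgeR adjusted p = 0.116). Gzmd had 54, 162 and 56 counts in treated libraries, against 0 in all untreated ones, at least 66.8-fold higher with 3 counts over the group as floor. Gzmg had 11, 51 and 41 counts, against 0 (at least 25.3-fold higher), and Gzmf 98, 198 and 49 counts, against 0, 0 and 1. The groups of these genes did not overlap, but none passed the adjusted threshold, with an edgeR adjusted p of 0.153 to 0.213 for Gzmd, Gzme, Gzmf and Gzmg.

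Treated CD4 replicate 2 stood apart, with 571 CPM of the 5 genes against 132 and 77.6 CPM in the other two, and 177 CPM of Prf1 against 67.4 and 103 CPM. It was also the shallowest CD4 library, at 3364119 counts, and the treated one with the most CD8 chains (46.4 CPM, against 12.9 and 17.2). Per CPM of these chains the 5 genes came to 10.2, 12.3 and 4.51 CPM in treated CD4 libraries, above the 2.21, 2.04 and 0.751 of treated CD8 libraries. Without treated replicate 3 there were 2 members called in this comparison. Gzmk had 16.9, 13.2 and 11.9 CPM in treated CD4 libraries, against 4.03, 7.62 and 6.22 CPM in untreated ones (1.25 ± 0.28, edgeR adjusted p = 0.075), and Gzma was at 25.4 ± 10.1 and 13.9 ± 4.63 CPM (0.91 ± 0.35, edgeR adjusted p = 0.333), both without overlap. Prf1 (0.67 ± 0.43) and Gzmm (-0.03 ± 0.50) overlapped. Scaled to an equal Cd3 sum, the median of all genes was -0.44, with 23 higher and 713 lower calls in place of 12 and 8, and Gzmc (3.05 ± 0.72, edgeR adjusted p = 0.0422) and Gzme (4.03 ± 1.07, edgeR adjusted p = 0.049) were called higher. The median of the members was 2.41, against -0.01 over all genes, and libraries did not overlap for 7 of 10, against 20% of all genes. Mast cell and basophil markers, which include proteases of the same chromosomal cluster, summed to 31.9 ± 12.0 CPM in treated and 3.59 ± 2.51 CPM in untreated deficient CD4 cells, with Mcpt4, Cma1, Tpsb2 and Tpsab1 at 0 in both, and their part was not tested.

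No member was called by edgeR between treated deficient and floxed CD4 cells, where 12.2% of all tested genes were. At an unadjusted p under 0.05 there were 2 members, Gzmc (1.98 ± 0.69, edgeR adjusted p = 0.0844) and Gzmg (3.32 ± 1.35, edgeR adjusted p = 0.137), of 3577 genes in all, and DESeq2 called Gzmc. All 10 members overlapped between these groups, where 27.7% of all tested genes did not, with Gzmb at 849 ± 131 CPM in treated deficient and 856 ± 80.3 CPM in floxed cells (-0.01 ± 0.25). Gzmd (1.86 ± 1.13), Gzme (0.86 ± 0.74) and Gzmm (0.89 ± 0.53) were above 0, Gzma (-0.28 ± 0.33) and Prf1 (-0.63 ± 0.43) below it, and Gzmf (-0.06 ± 0.94) and Gzmk (0.09 ± 0.26) near it, none of them called. Scaled to an equal Cd3 sum, where the median of all genes was -0.61 with 142 higher and 6039 lower calls in place of 575 and 1137, Gzma (-1.01) and Prf1 (-1.29) were called lower in treated deficient cells.

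The response of Gzmb and Gzmk differed between CD8 and CD4 cells by the test of the difference itself. Under the deletion, the CD8 minus CD4 difference was -1.74 ± 0.35 for Gzmb (edgeR adjusted p = 0.00384) and -1.27 ± 0.38 for Gzmk (edgeR adjusted p = 0.0317), where 4.72% of all genes were called lower. Under blockade it was 2.62 ± 0.36 for Gzmb (edgeR adjusted p = 0.002) and 1.60 ± 0.38 for Gzmk (edgeR adjusted p = 0.0466), where 0.575% were called higher. The Gzmb differences were called whichever library was left out. The Gzmk differences were not called in 7 of 12 such fits for the deletion (-1.23 to -1.0) and in 10 of 12 for blockade (1.35 to 1.75), nor by limma voom. The deletion difference of Gzmk was lost without floxed CD8 replicate 3, deficient CD8 replicate 1 or 2, floxed CD4 replicate 1 or 3, or deficient CD4 replicate 2 or 3, and the blockade difference was called only without deficient CD8 replicate 3 or deficient CD4 replicate 1. With an equal Cd3 sum the medians of all genes were 0.67 and -0.32, with 3752 higher and 88 lower calls in place of 970 and 664 for the deletion and 19 and 41 in place of 81 and 32 for blockade. Gzmb was then at -1.02 and 2.28, both called, Gzmk at -0.58 and 1.27 without a call, and the deletion difference of Gzma was called at 1.64. With the marker covariates the deletion difference of Gzmb was -1.55 ± 0.69 and not called (edgeR adjusted p = 0.343). Over all genes 100 deletion differences were called higher and 32 lower in that fit. The blockade differences of Gzmb (2.52 ± 0.50) and Gzmk (2.03 ± 0.44) were called there (edgeR adjusted p of 0.0346 and 0.0286). Over all genes 64 blockade differences were called higher and 84 lower. For Prf1 the differences were -0.73 ± 0.60 and 1.46 ± 0.60 (edgeR adjusted p of 0.515 and 0.341), and for Gzma 0.82 ± 0.47 and 1.11 ± 0.47 (edgeR adjusted p of 0.321 and 0.345). Gzmm was at -0.25 ± 0.70 and -0.13 ± 0.70. For Gzmc, Gzmd, Gzme, Gzmf and Gzmg the errors were 0.95 to 4.79, and none was called.

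Between the cell types, 8 members were higher in CD8 than in CD4 cells of treated deficient tumors (9.36% of all genes were), 6 in deficient tumors (6.21%) and 8 in floxed tumors (18.9%), and none was lower. Prf1 was higher in CD8 cells in all 3 settings, by 3.64 ± 0.46 in treated deficient, 2.18 ± 0.44 in deficient and 2.91 ± 0.45 in floxed tumors (edgeR adjusted p of 0.000108, 0.00448 and 0.000154). Gzmb was higher by 2.46 ± 0.26 in treated deficient and 1.58 ± 0.25 in floxed tumors, but in deficient tumors it was at 754 ± 330 CPM in CD8 and 843 ± 165 CPM in CD4 cells, which overlapped (-0.16 ± 0.25, edgeR adjusted p = 0.742). Gzmk showed the same order, with 2.37 ± 0.25, 0.76 ± 0.28 and 2.03 ± 0.25, called in treated deficient and floxed tumors and not in deficient ones (edgeR adjusted p = 0.0711). Gzmc was higher in CD8 cells by 3.31 ± 0.70, 3.85 ± 0.76 and 3.40 ± 0.71 in treated deficient, deficient and floxed tumors, all called. Gzme was called in all 3 as well (3.55 ± 0.68, 4.06 ± 1.10 and 3.49 ± 0.70), as were Gzmd and Gzmf. Gzmd was at 3.39 ± 0.99 in treated deficient and 3.93 ± 1.09 in floxed tumors, and Gzmf at 4.23 ± 0.96 and 3.70 ± 0.93. In deficient tumors Gzmf had 665 counts in CD8 and 1 count in CD4 libraries, a ratio of 546.5-fold with a counting interval of 97.8 to 21620. Gzmg was not called, at 1.10 ± 1.08 in treated deficient tumors, at least 7.67-fold higher in deficient ones and 3.41 ± 1.33 in floxed ones (edgeR adjusted p of 0.55, 0.147 and 0.0576). Gzma was called in treated deficient (2.72 ± 0.34) and deficient tumors (1.61 ± 0.35) and not in floxed ones (0.79 ± 0.33, edgeR adjusted p = 0.0669). Scaled to an equal Cd3 sum, the medians of all genes were -0.39, -0.08 and -0.72 in treated deficient, deficient and floxed tumors, with 260, 397 and 570 genes called higher and 2930, 929 and 6934 lower, and 7, 5 and 7 members were called, all higher in CD8 cells. In deficient tumors Gzmd, at least 77.0-fold higher in CD8 cells, was not called whichever of the 6 libraries was left out (edgeR adjusted p of 0.0525 to 0.133). In deficient tumors 3 members were called without deficient CD4 replicate 1 or 3, in place of 6. The Gzmm call in floxed tumors (1.36 ± 0.52) was lost in 5 of 6 such fits (1.15 to 1.46), all but the one without floxed CD8 replicate 3. Gzmm was not called in treated deficient (0.98 ± 0.49) or deficient tumors (1.11 ± 0.49).

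Other cells differed between the sorts too. Macrophage markers stood at 663 CPM in CD8 and 3845 CPM in CD4 cells of treated deficient tumors, 2151 and 4034 CPM in deficient and 1278 and 17820 CPM in floxed tumors. The melanoma and macrophage sums as covariates left 389, 735 and 322 genes called higher in CD8 cells of treated deficient, deficient and floxed tumors. Without them 1318, 874 and 2662 were. Of the members, 4 were called higher with these covariates in treated deficient tumors, 6 in deficient and 1 in floxed ones. In floxed tumors this was Gzmk (2.94 ± 0.66, edgeR adjusted p = 0.0121), while Prf1 (2.36 ± 1.21), Gzmb (1.33 ± 0.81) and Gzmc (2.11 ± 1.48) were not called (edgeR adjusted p of 0.304, 0.385 and 0.464). In treated deficient tumors Gzma, Gzmb (2.30 ± 0.57), Gzmk and Prf1 (3.24 ± 0.87, edgeR adjusted p = 0.0499) were called, and Gzmc was not (2.60 ± 1.11, edgeR adjusted p = 0.198). In deficient tumors Gzma, Gzmc (3.34 ± 0.69), Gzme, Gzmf, Gzmk (0.94 ± 0.31, edgeR adjusted p = 0.0487) and Prf1 (1.97 ± 0.51) were called, and Gzmd was not (edgeR adjusted p = 0.0656). The part of other cells in these differences was not tested further.

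Shares of the granzyme pool describe its make-up within a library. Gzmb made 52.8% ± 5.20 of the summed TPM of the 9 granzymes in treated deficient, 58.5% ± 3.46 in deficient and 61.6% ± 3.47 in floxed CD8 cells (SD, n = 3 each), and 68.3% ± 22.2, 93.5% ± 1.29 and 81.9% ± 8.02 in CD4 cells. Gzmc to Gzmg together made 43.0% ± 6.67, 34.4% ± 3.33 and 34.8% ± 3.21 in the CD8 groups and 27.1% ± 23.2, 3.02% ± 1.74 and 11.8% ± 6.57 in the CD4 groups. Within that row Gzmf gave 6.36% ± 2.24 of all granzyme TPM in treated deficient, 3.27% ± 1.18 in deficient and 10.7% ± 0.714 in floxed CD8 cells, and Gzmc 31.7% ± 3.50, 28.9% ± 3.82 and 19.2% ± 1.97. For both, floxed libraries did not overlap the other CD8 libraries.

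**Figure D4:**
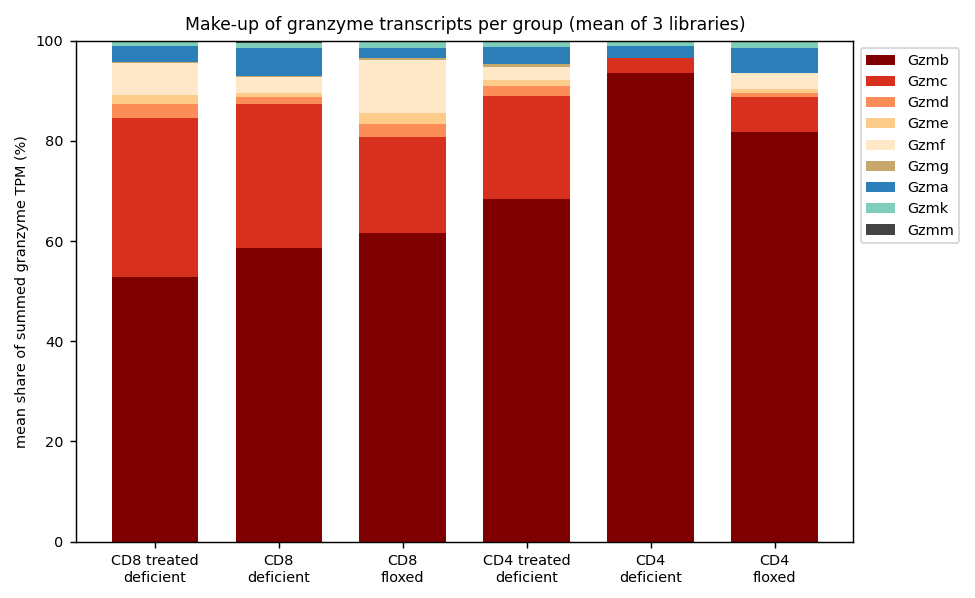
Mean share (%) of each granzyme in the summed granzyme TPM of a library, stacked, for the 6 groups (means of 3 libraries each). Gzmb takes 93.5% in deficient CD4 cells, where Gzmd to Gzmg have almost no reads, and 52.8% to 61.6% in the CD8 groups, where Gzmc is the second component.

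Ratios of counts within a library do not depend on the scale between libraries. For each 100 Gzmb counts there were 30.4, 30.2 and 30.7 Prf1 counts in treated deficient CD8 libraries, 45.8, 45.5 and 37.4 in deficient ones and 53.4, 55.2 and 46.3 in floxed ones. The 3 groups did not overlap, and the treated ones lay within 1 count of each other. For Gzma there were 3.20, 3.45 and 4.57 counts per 100 Gzmb counts in treated deficient, 7.36, 4.35 and 6.26 in deficient and 2.50, 1.78 and 2.07 in floxed CD8 libraries. For Gzmc there were 31.1 to 45.4 in treated deficient, 28.3 to 40.1 in deficient and 17.0 to 23.2 in floxed CD8 libraries, and for Gzmf 4.10 to 9.94, 2.83 to 4.91 and 9.92 to 12.6. In CD4 libraries Prf1 came to 7.49 to 25.3 per 100 Gzmb counts in treated deficient, 7.40 to 10.5 in deficient and 9.38 to 29.0 in floxed cells, below the CD8 range throughout.

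Genes that load, sort and release granules were measured beside the members. Of 26 such genes 24 were tested, and 3 rose and 9 fell under the CD8 deletion, 16 rose and 2 fell under CD8 blockade, 0 rose and 6 fell under the CD4 deletion, and none was called under CD4 blockade. Of all tested genes 9.65% rose and 9.61% fell under the CD8 deletion, 8.25% and 5.53% under CD8 blockade and 4.61% and 7.06% under the CD4 deletion. These counts moved with the scaling, which shifts all genes as given above. With an equal Cd3 sum, tried for the lists after the data were seen, 6 rose and 3 fell under the CD8 deletion, 4 rose and 8 fell under CD8 blockade, and 0 rose and 6 fell under the CD4 deletion. With the marker covariates 0 rose and 2 fell, 4 rose and 0 fell, and none was called, in the same order. Calls over all genes fell as well in that fit, as given above. Nkg7, a granule membrane protein needed for release, was at 524 ± 26.8 CPM in treated deficient, 239.5 ± 8.73 CPM in deficient and 528 ± 47.4 CPM in floxed CD8 cells, and both its fall under the deletion (-1.14 ± 0.11) and its rise under blockade (1.13 ± 0.11) were called. Serpinb9, the granzyme B inhibitor that shields the killer cell, moved the same way, at -0.91 ± 0.25 and 1.47 ± 0.26 (edgeR adjusted p of 0.0191 and 0.00119). Cst7, an inhibitor of granule cathepsins, was at -1.01 ± 0.17 and 1.00 ± 0.17, and Sytl2, which tethers granules to the membrane, fell by 1.39 ± 0.23 under the deletion. Stx11, a fusion protein of granule release, rose by 1.18 ± 0.18 under blockade. Srgn, the proteoglycan that holds granzymes in the granule, was not called under the deletion (-0.14 ± 0.13) and rose under blockade (0.76 ± 0.14). Ctsc, the protease that activates pro-granzymes, was at 266 ± 57.8 CPM in deficient and 197 ± 30.1 CPM in floxed CD8 cells (0.43 ± 0.24, edgeR adjusted p = 0.242) and was not called under CD8 blockade either (-0.27 ± 0.24). In CD4 cells Ctsc fell by 1.68 ± 0.25 under the deletion together with the lysosomal Lamp1 (-1.39 ± 0.25), Lamp2 (-1.16 ± 0.19) and Ctsh (-1.77 ± 0.29), genes that macrophages also make, and macrophage markers moved there as given above. Nkg7 fell there by 0.83 ± 0.11, while Serpinb9 (-0.13 ± 0.25) and Srgn (-0.05 ± 0.13) were not called. With an equal Cd3 sum the CD8 blockade values of Nkg7 (0.37), Cst7 (0.24), Stx11 (0.43) and Srgn (0.00) and the CD8 deletion value of Serpinb9 (-0.38) were not called, and Ctsc was called at 0.96 and -1.04 under CD8 deletion and blockade. With the marker covariates Serpinb9 was not called under CD8 deletion (0.13 ± 0.38) or blockade (0.64 ± 0.34). Nor were Sytl2 under the deletion (-0.96) and Srgn (0.79) and Stx11 (0.38) under blockade, while Nkg7 and Cst7 kept their CD8 calls.

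Of 22 regulators of cytotoxic genes 1 rose and 11 fell under the CD8 deletion (9.65% and 9.61% of all tested genes). Under CD8 blockade 7 rose and 2 fell (8.25% and 5.53% of all). With an equal Cd3 sum 7 rose and 4 fell under the deletion and 3 rose and 9 fell under blockade, and with the marker covariates 0 rose and 1 fell and 2 rose and 1 fell. Id2, which favours effector cells, was at -1.26 ± 0.16 under the deletion and 1.84 ± 0.16 under blockade, and Prdm1, the factor Blimp-1, at -2.05 ± 0.28 and 1.94 ± 0.28. Id3, its memory counterpart, went the other way, at 1.88 ± 0.37 and -2.05 ± 0.37. Tbx21, the factor T-bet, was at 91.4 ± 12.4 CPM in deficient and 156 ± 28.7 CPM in floxed CD8 cells (-0.78 ± 0.21, edgeR adjusted p = 0.0152) and at 0.82 ± 0.21 under blockade (edgeR adjusted p = 0.0149). Tbx21 was at -0.24 and 0.06 and not called with an equal Cd3 sum, while Id2, Prdm1 and Id3 kept direction and call. With the marker covariates all 4 kept direction, and Tbx21 (-0.71 and 0.34) and Id3 (2.36 and -2.30) were not called. Id2 was called there under blockade alone (-1.04 and 1.74), and Prdm1 under the deletion alone (-1.79 and 1.28). Eomes, the other T-box factor of cytotoxic cells, was not called in any of the 4 comparisons, with 0.26 ± 0.48 and 0.22 ± 0.48 in CD8 cells. Under the CD4 deletion, where 4.61% of all tested genes rose and 7.06% fell, 2 regulators rose (Stat5b and Stat4) and 2 fell (Zeb2 and Notch2). Tbx21 was not called there (0.28 ± 0.22). None of these was called in CD4 cells with the marker covariates, and with an equal Cd3 sum Stat5b and Stat4 were not (0.43 and 0.36).

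Of 15 other cytotoxic molecules 1 rose and 8 fell under the CD8 deletion (9.65% and 9.61% of all tested genes). Under CD8 blockade 9 rose and none fell (8.25% and 5.53% of all), and under the CD4 deletion 1 rose and 5 fell (4.61% and 7.06%). With an equal Cd3 sum 1 rose and 2 fell, 4 rose and 1 fell, and 1 rose and 6 fell in these comparisons, and with the marker covariates 0 rose and 1 fell, 4 rose and 0 fell, and none was called. Fasl, the ligand that kills through Fas, was at -0.89 ± 0.19 and 1.55 ± 0.19 in CD8 cells, and Ifng at -1.09 ± 0.41 and 1.15 ± 0.42 without a call (edgeR adjusted p of 0.0852 and 0.0877). Fasl was at -0.36 without a call and 0.79 with one when the Cd3 sum was made equal. In CD4 cells Ifng fell by 1.60 ± 0.44 under the deletion (edgeR adjusted p = 0.0305) and was not called with the marker covariates, and Fasl was at 60.0 ± 13.97 CPM in deficient and 46.1 ± 2.49 CPM in floxed cells (0.39 ± 0.20, not called). Under CD4 blockade no gene of these lists was called by edgeR. Of 15 genes that neighbour the granzyme genes, 6 passed the filter. Under CD8 blockade 4 rose (2 with an equal Cd3 sum and 1 with the marker covariates), among them Mcpt8, a protease gene of the same cluster as Gzmb, at 1.61 ± 0.226 CPM in treated and 0.0786 ± 0.136 CPM in untreated deficient cells (3.97 ± 1.28, edgeR adjusted p = 0.0494), which was not called with the marker covariates (1.29). Gzmn, the next granzyme of the row, had 6 counts in all, in 1 of the 18 libraries.

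The level patterns over the 18 libraries set Gzmm apart from the others. Pearson's r of log2 CPM between members was 0.83 to 0.98 among Gzmc to Gzmg and 0.71 to 0.78 between these and Gzmb, while Gzmm had 0.26 to 0.58 with the other 9. With Gzmc to Gzmg, Prf1 had 0.76 to 0.91, Gzmk 0.74 to 0.89 and Gzma 0.66 to 0.86, which reached into the range within the row. Whether sequence shared among the near copies adds to r within the row was not tested. These values describe 18 libraries that share depth, cell type and purity. Among 9148 genes with an average log2 CPM of at least 3, the gene most like Prf1 was Adamts14 (r = 0.98), followed by Galnt3, Gpd2, Actn4 and Klrc1. Among the genes most like Gzmb were Tcf19 (r = 0.92), Fasl and Zbtb32. Gzmc was most like Serpinb9b (r = 0.96), Gzmd and Gzme most like Spin4, Gzmf most like Serpine2, and Gzmk most like B4galt5 (r = 0.94). Gzma was most like Atp8b4 (r = 0.90), Gzmg most like Tnfsf10 (r = 0.90) and Gzmm most like Elp3 (r = 0.88).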

How the data were processed

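RNA of sorted tumor T cells was sequenced in 18 libraries (6 groups of 3). The deposited files hold read counts for each gene model, made with featureCounts 1.5.1 with strand option 2 (reverse stranded) on Ensembl release 87, per the file headers. No option to count reads that map to several places stands in these headers. The tools named are STAR, featureCounts and DESeq2, on build GRCm38, per the submitters' processing notes. Symbols came from GENCODE M21 (49326 of 49671 IDs matched). Strand was counted, so genes on opposite strands are kept apart.

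All 18 libraries entered 1 fit in edgeR 4.0.16 (R 4.3.3; filterByExpr, TMM, robust quasi-likelihood, 12 residual degrees of freedom, common coefficient of variation 0.229). Adjusted p-values are Benjamini-Hochberg over 14080 genes, with calls made under 0.05, in 11 contrasts. CPM values use TMM totals, and TPM the exonic length of the files. SD is over 3 libraries and SE is that of the fit. Folds against a group at 0 use 3 counts over the group. Intervals and floors cover counting error only. On simulated counts for the CD8 deletion (13465 genes) 96% to 100% of 4-fold and 34% to 46% of 2-fold changes were recovered, with 4.2% false calls. That simulation gave every gene the same spread, and the changed genes were not among those with few counts. Recovery for members with larger errors, such as Gzmd and Gzmg (SE 0.95 and 1.18 in that contrast), was not simulated. Same-numbered libraries deviated together (r over 0.1 in all 3 pairs) for treated CD8 against treated CD4 cells, which counts as a pairing there (0.105, 0.103 and 0.289), and for no other pair of groups. No 2 libraries agreed within sampling noise (chi-square per degree of freedom of at least 7.78 between replicates). P-values measure only the spread between pools, and whether CD8 and CD4 pools share mice is not given in the labels.

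All members are named in every comparison, whatever their result. Of each other list, up to 5 called genes with the smallest adjusted p could be named, with Srgn, Ctsc, Serpinb9, Nkg7, Tbx21, Eomes, Ifng and Fasl whatever their result, and the 5 genes most like each member by Pearson's r (prior count 2). Mcpt8 was within this rule, while Gzmn was named after its values were seen. One gene that the rule names is not reported here. The members and lists (granule machinery, regulators, other cytotoxic molecules, locus neighbours and markers of other cells) were chosen with earlier results of these data known. The motifs were chosen during the work. Alternatives were RLE scaling, no filter, a stricter filter (1 CPM in 6 libraries), DESeq2 1.42.0, limma 3.58.1 voom, libraries of a cell type alone, a replicate block, marker covariates, equal Cd3 sums and each library left out. Sequences are RefSeq's (GRCm38.p6), identities were computed with Biopython 1.88.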

Additional observations from a re-analysis of the deposited data

Results flagged for a closer look

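The effect of the deletion differed between CD8 and CD4 cells by an interaction term for Gzmb (CD8 minus CD4, -1.74 ± 0.35 on the log2 scale, edgeR adjusted p = 0.00384) and for Gzmk (-1.27 ± 0.38, edgeR adjusted p = 0.0317). The effect of blockade differed for the same genes, by 2.62 ± 0.36 for Gzmb (edgeR adjusted p = 0.002) and 1.60 ± 0.38 for Gzmk (edgeR adjusted p = 0.0466). Both differences use the same deficient libraries and are not independent of each other. The Gzmk differences are less firm than those of Gzmb: the deletion difference was not called in 7 of 12 fits with 1 library left out and the blockade difference in 10 of 12. Neither Gzmk difference was called by limma voom (adjusted p of 0.0644 and 0.0796) or with an equal Cd3 sum (-0.58 and 1.27, edgeR adjusted p of 0.306 and 0.198). With the marker covariates the deletion differences of Gzmb (edgeR adjusted p = 0.343) and Gzmk (edgeR adjusted p = 0.115) were not called. The blockade differences were called in that fit, at 2.52 ± 0.50 for Gzmb and 2.03 ± 0.44 for Gzmk (edgeR adjusted p of 0.0346 and 0.0286). All 3 treated and all 3 deficient CD8 libraries moved apart from their comparison group for both genes. Of all tested genes 34.2% did not overlap under the CD8 deletion and 44.1% under CD8 blockade. In CD4 cells Gzmb overlapped in every comparison. Gzmk did not overlap under the CD4 deletion (-1.16, called) or CD4 blockade (1.25, not called), in the same directions as in CD8 cells. Of all tested genes 28% and 20% did not overlap in these CD4 comparisons.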

How the results depend on the processing

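Of 43 member calls over the 11 contrasts, 28 held whichever library was left out. Without a filter on low counts the members called were 8 for the CD8 deletion, 6 for treated deficient against floxed CD8, 8 for the CD4 deletion, 8 for CD4 blockade, 4 for treated deficient against floxed CD4, 6 for the difference of the deletion effect and 7 for that of blockade, in place of 5, 1, 3, 0, 0, 2 and 2. DESeq2 called 3 for treated against floxed CD8, 5 for the CD4 deletion, 5 for CD4 blockade and 1 for treated against floxed CD4, and gave no adjusted p for Gzmf. Voom called 3 for treated against floxed CD8, 1 for the CD4 deletion, 1 for each difference between cell types and 3 for CD8 against CD4 in deficient tumors. With marker covariates there were 1 for the CD8 deletion, 2 for CD8 blockade, 0 for the CD4 deletion, 0 for the difference of the deletion effect, and 4 and 1 for CD8 against CD4 in treated and floxed tumors; Gzmf turned to 0.54 in the CD8 deletion and Gzma to 0.01 in the CD4 deletion, and genes called overall fell to 128 from 2712 in the CD8 deletion and to 8 from 1643 in the CD4 deletion. An equal Cd3 sum gave 2 for CD4 blockade, 2 for treated against floxed CD4 and 1 for the difference of blockade, RLE scaling 1 for the difference of blockade, and the stricter filter and CD8 libraries alone 2 each for treated against floxed CD8. The replicate block gave 2 for treated against floxed CD8 and 2 for CD4 blockade, and over all contrasts lost 2 member calls and gained 7. By the criterion used, the numbers paired treated CD8 with treated CD4 libraries, where the block left the same 8 members called, and no other groups (r over 0.1 in 9 of 45 same-numbered pairs, -0.18 to 0.29, and best with the own number in 33 of 90 cases). In floxed tumors the block added Gzmg (3.87) and lost Gzmm (1.35) for CD8 against CD4. Leaving out 1 library gave 4 to 5 members for the CD8 deletion, 5 to 9 for CD8 blockade, 1 to 2 for treated against floxed CD8, 0 to 5 for the CD4 deletion, 0 to 2 for CD4 blockade, 0 to 1 for treated against floxed CD4, 1 to 2 for both differences, and 7 to 9, 3 to 6 and 6 to 8 for CD8 against CD4 in treated, deficient and floxed tumors. The cause of these changes was not tested. Depth limits Gzmg, Gzmm and, in CD4 cells, Gzmd to Gzmf, whose groups hold 0 to 372 counts.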
